A study of Mus musculus with 24 samples.

Results

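The genes described here are 37 genes of the muscle sarcomere and its surroundings other than the myosin heavy chains and troponins: filament proteins, Z-disc proteins, and the metabolic and turnover enzymes of striated muscle. They were taken by their symbols, which both count tables hold, and are 37 of the 38,013 genes whose identifiers the tables share. Their levels were read in inguinal subcutaneous white adipose tissue of C57BL/6J mice, with the lymph node taken out before freezing, sequenced as messenger RNA in 24 libraries. D316A-Tg mice carry a gain-of-function form (D316A) of the γ1 subunit of AMPK, the kinase that senses cellular energy, as a transgene, and WT-Tg mice carry the wild-type γ1 subunit as a transgene, so both genotypes are transgenic. There were 6 libraries of D316A-Tg and 6 of WT-Tg mice aged 24 weeks on a high-fat diet (HFD, 45% fat), and 6 of D316A-Tg and 6 of WT-Tg mice aged 16 weeks on chow. Libraries are named by the numbers in their labels, 7 to 12 for D316A-Tg and 1 to 6 for WT-Tg on each diet. The promoter that drives the transgenes is not given in the sources used here. The labels do not say that the 6 libraries of a group are separate animals, and the spread that enters each p-value is that of the libraries, which may be partly technical.

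A sarcomere is built from thin filaments of actin and thick filaments of myosin that slide past each other. The thin filaments are anchored at the Z-disc, the thick filaments are joined at the M-band, and titin spans from the one to the other. Fast and slow muscle fibres use different members of the same families, and fast fibres are richer in glycolytic enzymes while slow fibres are richer in myoglobin and mitochondria. In mouse the inguinal fat pad lies against the muscles of the flank and thigh, and white adipocytes are not known for sarcomeres.

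Promoters of 4 members are shown because their levels followed different courses: Acta1 and Mylpf carried much of the muscle signal, Actn2 differed from its fast partner between libraries, and Myom3 did not follow the other members. Each is 250 bases before to 50 bases after the RefSeq start of the gene, 5′ to 3′ on the strand of the gene, on GRCm38.p6, at chr8:123894726-123895025 on the minus strand for Acta1, chr7:127211358-127211657 on the plus strand for Mylpf, chr13:12340683-12340982 on the minus strand for Actn2 and chr4:135759465-135759764 on the plus strand for Myom3. GENCODE M21 places the start of Mylpf upstream of this window, at chr7:127208890. Capitals mark matches, on either strand, to the E-box CAGCTG, the M-CAT element CATTCC, the TATA box TATAAA, the MEF2 site and the CArG box.
Acta1: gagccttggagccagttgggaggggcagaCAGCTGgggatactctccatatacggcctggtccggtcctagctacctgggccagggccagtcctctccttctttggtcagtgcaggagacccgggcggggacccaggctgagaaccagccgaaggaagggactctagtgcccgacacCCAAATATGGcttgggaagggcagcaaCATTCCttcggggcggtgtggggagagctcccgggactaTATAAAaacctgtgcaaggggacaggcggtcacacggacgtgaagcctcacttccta
Mylpf: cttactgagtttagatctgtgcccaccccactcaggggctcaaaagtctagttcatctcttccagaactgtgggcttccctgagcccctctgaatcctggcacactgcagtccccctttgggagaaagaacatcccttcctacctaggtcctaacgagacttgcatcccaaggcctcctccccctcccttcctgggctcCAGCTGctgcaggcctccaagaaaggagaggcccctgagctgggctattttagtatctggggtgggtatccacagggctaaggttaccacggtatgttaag
Actn2: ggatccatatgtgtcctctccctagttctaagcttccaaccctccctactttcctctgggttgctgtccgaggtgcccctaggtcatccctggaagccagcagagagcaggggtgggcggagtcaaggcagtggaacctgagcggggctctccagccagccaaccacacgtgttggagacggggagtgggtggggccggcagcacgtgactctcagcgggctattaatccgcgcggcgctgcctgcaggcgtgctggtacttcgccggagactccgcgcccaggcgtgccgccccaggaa
Myom3: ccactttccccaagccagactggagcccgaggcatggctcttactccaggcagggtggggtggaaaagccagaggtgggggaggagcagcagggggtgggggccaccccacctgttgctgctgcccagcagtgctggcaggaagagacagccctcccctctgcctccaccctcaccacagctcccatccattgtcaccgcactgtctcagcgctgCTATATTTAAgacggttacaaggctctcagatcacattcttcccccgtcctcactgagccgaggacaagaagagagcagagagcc
The E-box is bound by MyoD-type factors, the MEF2 site by MEF2 factors, the CArG box by serum response factor and the M-CAT element by TEAD factors. Acta1 held an E-box, a CArG box, an M-CAT element and a TATA box. Mylpf held an E-box and Myom3 a MEF2 site, and Actn2 held none of these letters in its window.

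Of the 37 members, 26 matched a RefSeq promoter. Among those 26, the E-box CAGCTG was found in 12, against 16.1% of all 27,025 promoters of the table, the CArG box in 5, against 1.57%, and the MEF2 site in 6, against 3.26%. The M-CAT letters CATTCC were found in 8 of the 26, against 14.6% of all promoters, and TATAAA in 4, against 14.2%. No match of one motif overlapped a match of another in these promoters. The MEF2 site was in the promoters of Xirp2, Ttn, Myoz2, Myom3, Mylk4 and Pvalb, and the CArG box in those of Actc1, Acta1, Myl3, Ldb3 and Myom1. A match describes the letters alone.

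The 37 genes together took a share of the library that varied widely within groups. In D316A-Tg on HFD the share was 1.49% of counts in library 7, 0.125% in 8, 0.153% in 9, 0.444% in 10, 0.0621% in 11 and 0.0303% in 12. In WT-Tg on HFD it lay between 0.0143% and 0.0282%, below every D316A-Tg library on that diet. In D316A-Tg on chow it lay between 0.0117% and 0.0669%, and in WT-Tg on chow it was 0.0438%, 0.0212%, 0.0211%, 0.222%, 0.116% and 0.699% in libraries 1 to 6. In bulk tissue, fewer muscle cells and less RNA per muscle cell cannot be told apart, and which cells these counts came from was not tested. Of the 37 members, 29 had their highest level of all 24 libraries in D316A-Tg 7 on HFD. Myl2, Myl3, Mybpc1 and Mb were highest in D316A-Tg 9 on HFD, Actn2 and Myoz2 in WT-Tg 5 on chow, Actc1 in WT-Tg 6 on chow and Myom3 in WT-Tg 3 on HFD.

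**Figure D1:**
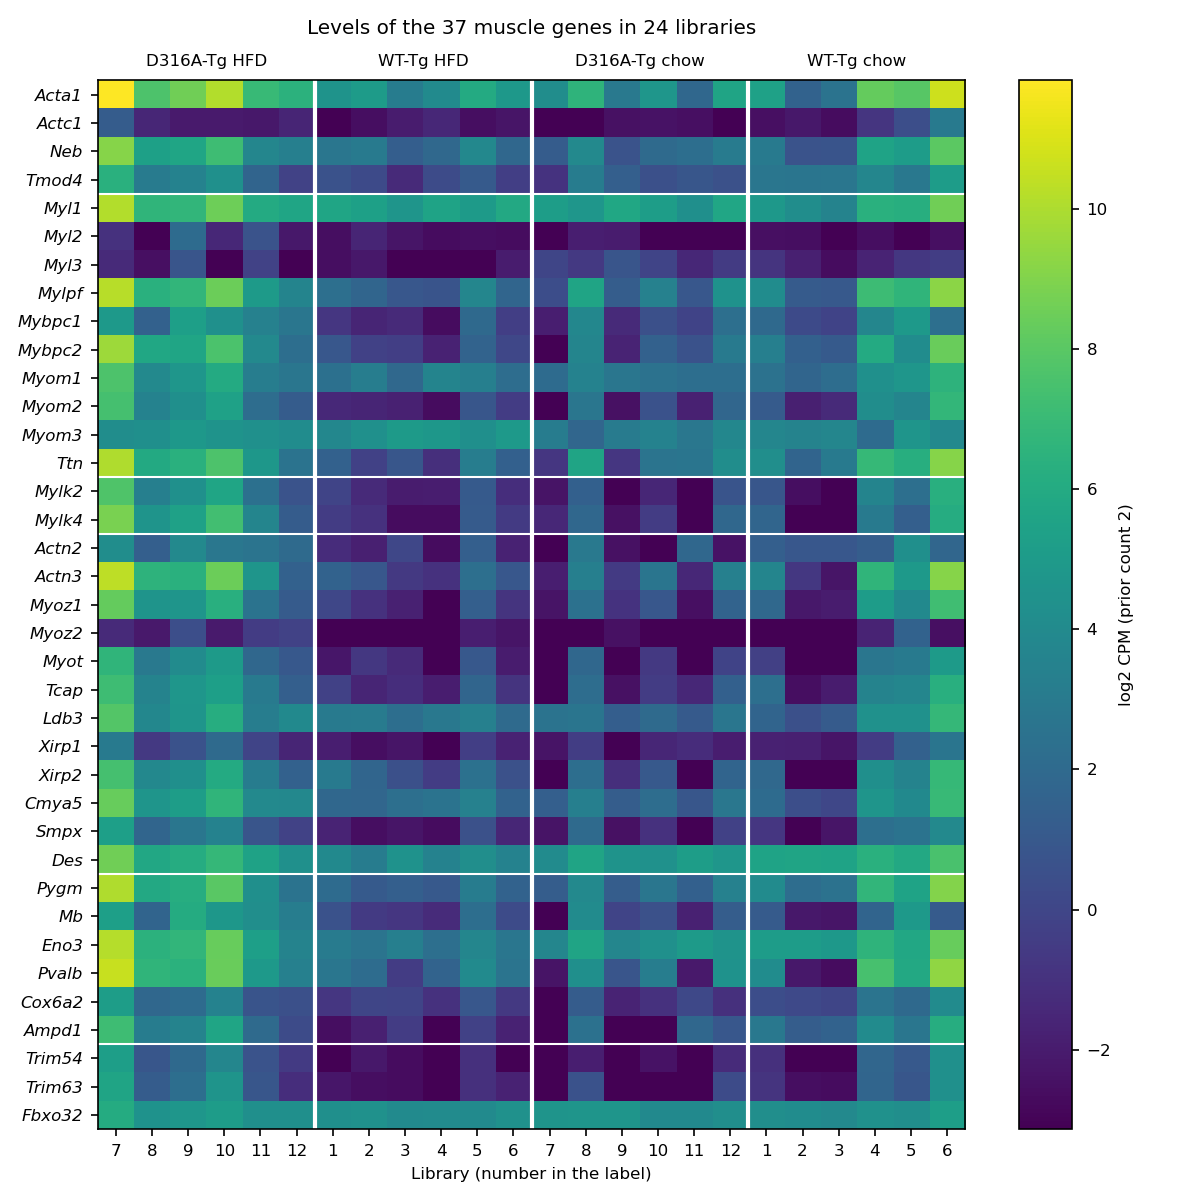
Heat map of log2 CPM (counts scaled to a library of 1e6, prior count 2) of the 37 muscle genes (rows, in 6 lists by role) in 24 libraries (columns, by group and label number). D316A-Tg 7 and 10 on HFD and WT-Tg 6 on chow are bright for most genes, while Myl1, Myom3, Des and Fbxo32 stay visible in every library.

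Library totals were 13,254,536 to 22,748,132 counts. Markers of white adipocytes were present throughout, the summed level of 10 genes being between 19,297 and 85,190 CPM in each library. Prkag1, which encodes the γ1 subunit, was at 256 to 752 CPM in D316A-Tg and 305 to 356 CPM in WT-Tg on HFD, and at 280 to 531 CPM in D316A-Tg and 294 to 525.9 CPM in WT-Tg on chow. The levels of the transgene gene overlapped between genotypes, which both carry it. Markers of B lymphocytes stood apart by library: the mean log2 CPM of 10 B lymphocyte genes was above 4 in D316A-Tg 7, 8, 9 and 11 and WT-Tg 3 on HFD, and in D316A-Tg 8 and 11 and WT-Tg 1 to 4 on chow. The summed level of those 10 genes was 14.6 to 1000.03 CPM in D316A-Tg and 4.85 to 578 CPM in WT-Tg on HFD, and 2.59 to 1365 CPM in D316A-Tg and 3.66 to 1852 CPM in WT-Tg on chow, with none of the 10 at 0 throughout a group. Counts of members called are given with and without these libraries.

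On HFD, most members were higher in D316A-Tg than in WT-Tg fat. By edgeR's quasi-likelihood test, 29 of the 31 members tested were higher and 0 were lower at an adjusted p below 0.05, against 4.51% of all 14,649 genes called higher and 3.96% called lower. The median log2 fold change of the 31 was 4.92, against 0.0077 for all genes. Without a filter on low counts all 37 were tested, 27 of them were higher and the median was 4.35. For 8 of the 37, Acta1, Mybpc2, Myom2, Mylk4, Actn2, Cmya5, Ampd1 and Trim54, every D316A-Tg library was above every WT-Tg library. This held for 1.76% of 14,641 genes that passed the filter, which Trim54 did not. Mylk4, Ampd1 and Myom2 passed it through the D316A-Tg libraries, where they were high. Each WT-Tg library held 1 to 41, 0 to 14 and 1 to 34 counts of them, so the sizes of their fold changes are imprecise.

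Levels of lymphocyte markers in the libraries behind this difference were as follows. D316A-Tg 10 and 12, whose B lymphocyte scores were low at 0.40 and 1.80, had 0.444% and 0.0303% of their counts in the 37 genes, while WT-Tg 3, whose score was 5.57, had 0.0143%. With the B lymphocyte score as a covariate 0 of the 31 members passed edgeR's test, the lowest adjusted p being 0.0939, with 23 of all genes called and a median log2 fold change of 5.01. With the lymphocyte-rich libraries left out, 2 D316A-Tg and 5 WT-Tg libraries remained, 0 members and 0 genes of any kind were called, the lowest adjusted p of a member was 0.214 and the median was 3.93. The 10 B and 10 T lymphocyte genes had median log2 fold changes of 2.03 and 1.92 on HFD, with 0 called. Of 10 macrophage genes, 4 were lower in D316A-Tg on HFD and 0 were higher, with a median of -1.16, and their summed level was 462 to 1066 CPM in D316A-Tg and 780 to 2110 CPM in WT-Tg. The part of macrophage content in the difference was not tested. Leaving out WT-Tg 6 brought the count of members called to 14, leaving out WT-Tg 4 to 18 and WT-Tg 1 to 19, and without D316A-Tg 7 it was 24 with a median of 3.84. Acta1, Mylpf, Mybpc2, Myom2, Mylk4, Actn3, Myoz1, Tcap, Pygm, Mb, Eno3 and Ampd1 were called whichever library was left out.

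**Figure D2:**
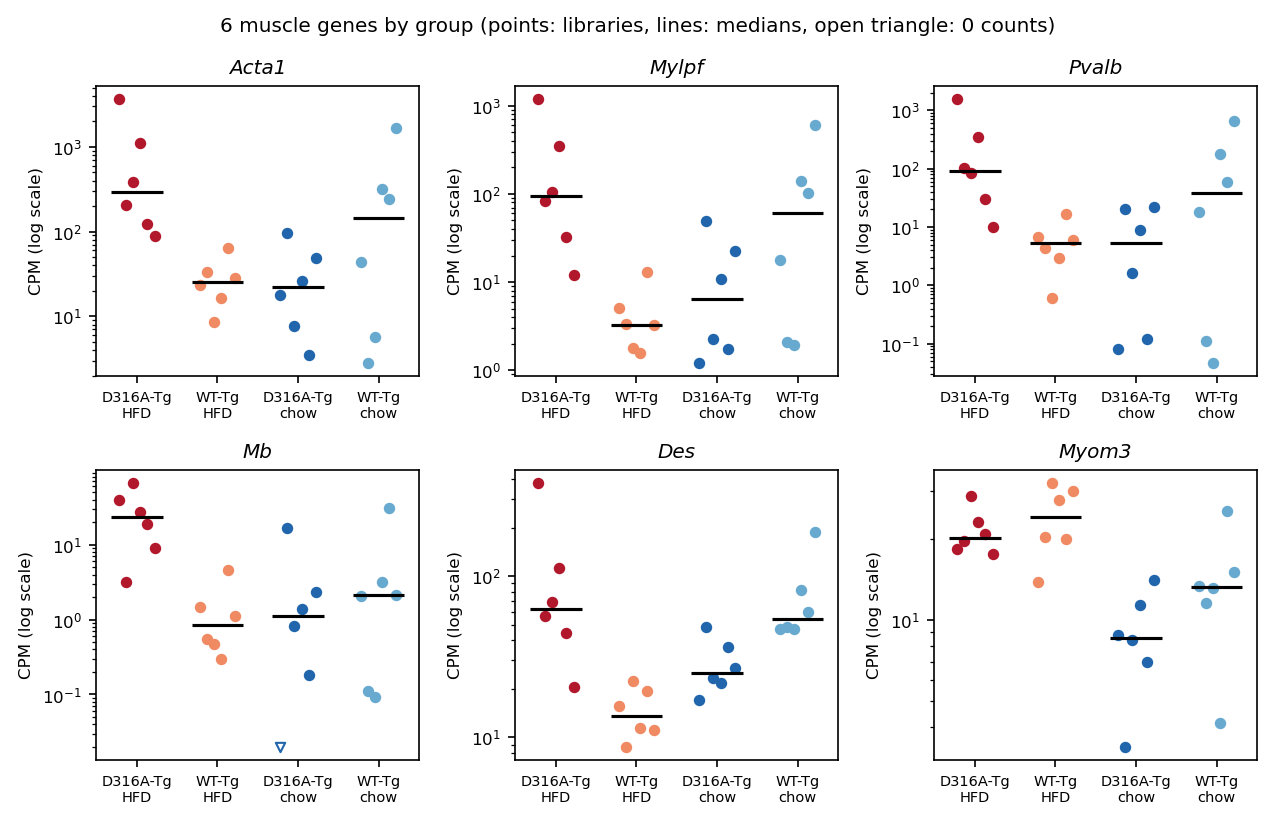
CPM on a log axis of Acta1, Mylpf, Pvalb, Mb, Des and Myom3 in the libraries of each group (points), with group medians (lines) and libraries at 0 counts (open triangles). Acta1 in D316A-Tg on HFD is above WT-Tg on HFD in every library, WT-Tg on chow spreads from 2.83 to 1670 CPM, and Myom3 differs little between genotypes on HFD.

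The thin filament list holds Acta1 (skeletal actin), Actc1 (the cardiac actin), Neb (nebulin, which runs along the thin filament) and Tmod4 (tropomodulin, which caps its pointed end). On HFD, 3 of the 4 were tested and 3 were higher, with a median log2 fold change of 4.37. Acta1, at chr8:123891769-123894751 on the minus strand in GRCm38, had a lowest, median and highest level of 89.7, 294 and 3646 CPM in D316A-Tg, against 8.63, 25.7 and 63.9 CPM in WT-Tg. The groups did not overlap, and its log2 fold change was 4.96 ± 0.99 (SE; adjusted p = 0.0216, edgeR), or 31.2-fold between group means. Tmod4 was at 0.754, 9.77 and 81.1 CPM in D316A-Tg, against 0.280, 1.07 and 2.01 CPM in WT-Tg, with D316A-Tg 12 inside the range of WT-Tg. Its log2 fold change was 4.22 ± 0.96 (SE; adjusted p = 0.0263, edgeR), and its adjusted p reached 0.0604 with WT-Tg 6 left out and was also above 0.05 without WT-Tg 1, 2, 4 or 5. Actc1 was near the floor, with at most 2.26 CPM in D316A-Tg and at most 0.248 CPM in WT-Tg, and was not tested.

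The thick filament, M-band and titin list has 10 genes: the light chains Myl1, Myl2, Myl3 and Mylpf, the myosin-binding proteins Mybpc1 and Mybpc2, the myomesins Myom1, Myom2 and Myom3 of the M-band, and titin (Ttn). On HFD, 8 were tested, 7 were higher and 1, Myom3, was not called. Mylpf, the fast regulatory light chain, had a lowest, median and highest level of 12.0, 94.6 and 1184 CPM in D316A-Tg, against 1.59, 3.27 and 13.1 CPM in WT-Tg. D316A-Tg 12 alone lay below the highest WT-Tg library, number 5, and the log2 fold change was 5.95 ± 1.15 (SE; adjusted p = 0.0198, edgeR). Mybpc2, the fast myosin-binding protein C, was at 4.69, 52.5 and 785 CPM in D316A-Tg, against 0.198, 0.828 and 2.94 CPM in WT-Tg, with no overlap. Its log2 fold change of 7.21 ± 1.30 (SE) had the lowest adjusted p of the list, 0.0179 by edgeR.

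Myom3 is the myomesin known from slow and intermediate fibres, and it did not follow the others. It was at 17.6, 20.2 and 28.9 CPM in D316A-Tg and at 13.8, 24.1 and 32.2 CPM in WT-Tg on HFD, and its log2 fold change was -0.17 ± 0.20 (SE; adjusted p = 0.555, edgeR). Across all 24 libraries Myom3 varied from 3.38 CPM in D316A-Tg 8 on chow to 32.2 CPM in WT-Tg 3 on HFD. Both were lymphocyte-rich libraries, D316A-Tg 8 with the most muscle counts of its group and WT-Tg 3 with the fewest of its own. Myl2 and Myl3, the slow and ventricular light chains, were not tested on HFD, with at most 4.12 and 1.67 CPM in D316A-Tg and at most 0.221 and 0.141 CPM in WT-Tg.

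Of the other thick filament genes on HFD, Ttn, which encodes the giant spring of the sarcomere, was at 5.76, 71.7 and 1060 CPM in D316A-Tg, against 0.347, 2.15 and 8.97 CPM in WT-Tg, and its log2 fold change was 6.36 ± 1.29 (SE; adjusted p = 0.0222, edgeR). Myom2, the myomesin of fast fibres, was at 2.26, 15.3 and 174 CPM in D316A-Tg, against 0.0496, 0.24 and 1.75 CPM in WT-Tg, with no overlap between the groups. D316A-Tg 7 was the highest library for both genes. Myl1 and Myom1 had log2 fold changes of 2.78 ± 0.73 and 2.84 ± 0.80 (SE; adjusted p = 0.0403 and 0.0485, edgeR). Myl1, an essential light chain of fast fibres, was at 51.1, 103 and 1112 CPM in D316A-Tg, against 25.9, 44.1 and 60.4 CPM in WT-Tg, and D316A-Tg 12 alone lay inside the WT-Tg range. Mybpc1 was at 2.79, 15.6 and 39.3 CPM in D316A-Tg, against 0.0496, 0.373 and 3.82 CPM in WT-Tg, and was highest in D316A-Tg 9 and not in D316A-Tg 7. The call of Myl1 was lost on leaving out any of 10 of the 12 libraries singly, and that of Myom1 on any of 11, with adjusted p values of up to 0.0906 and 0.1004 (edgeR).

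Mylk2 and Mylk4 encode kinases of the myosin light chain kinase family, of which Mylk2 is the skeletal enzyme that phosphorylates the regulatory light chain. Mylk2 was at 1.51, 15.04 and 208 CPM in D316A-Tg, against 0.140, 0.302 and 2.01 CPM in WT-Tg on HFD. D316A-Tg 12 was below WT-Tg 5, and the log2 fold change was 6.27 ± 1.26 (SE; adjusted p = 0.0218, edgeR), with an adjusted p of 0.0504 without WT-Tg 6. Mylk4 was at 2.26, 33.3 and 445 CPM in D316A-Tg, against 0.0467, 0.475 and 2.11 CPM in WT-Tg. Its groups did not overlap, and its log2 fold change of 7.47 ± 1.36 (SE; adjusted p = 0.0184, edgeR) was the largest among the members tested on HFD. WT-Tg libraries held 1 to 41 counts of Mylk4, so that size is imprecise.

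**Figure D3:**
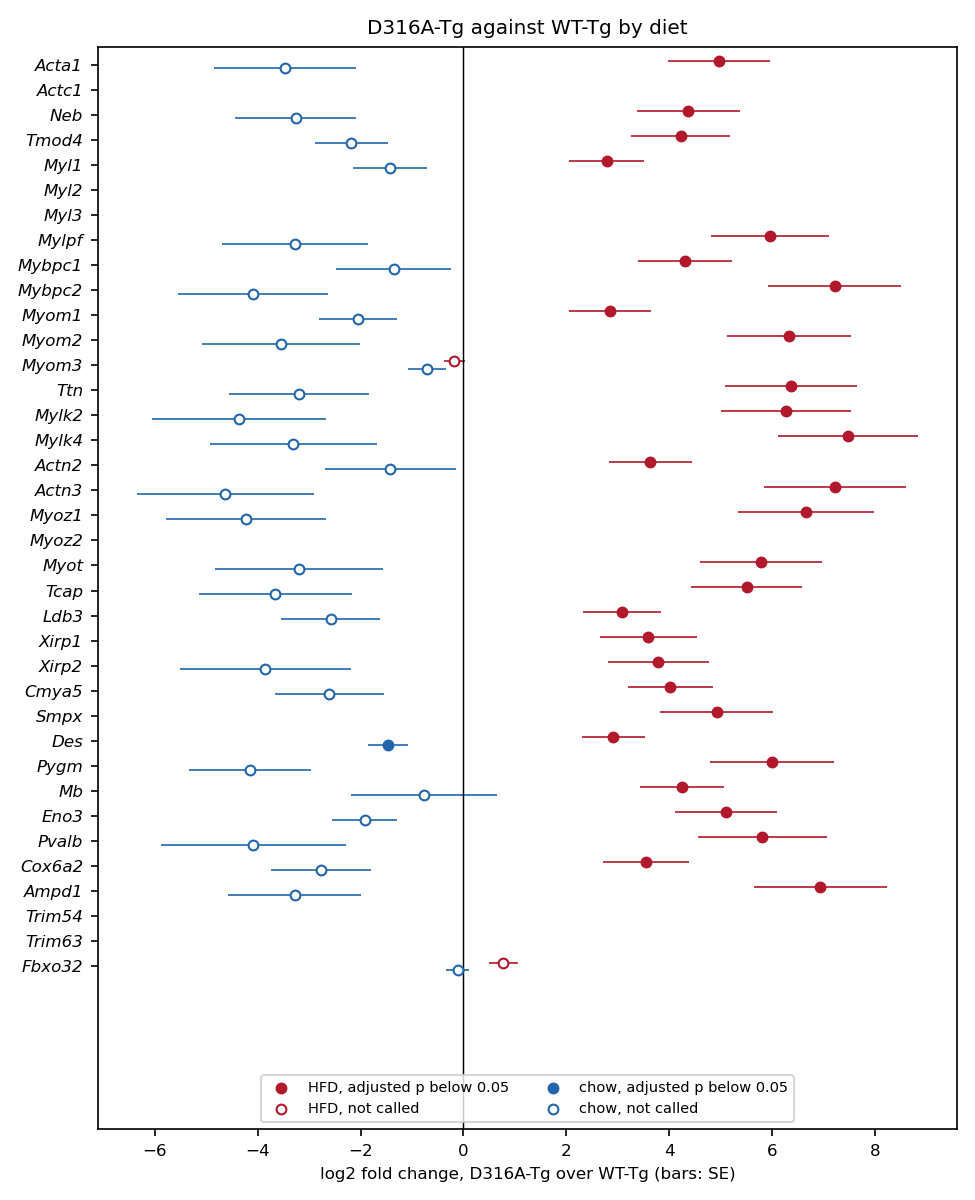
Log2 fold change of D316A-Tg over WT-Tg on HFD (red) and on chow (blue) for each muscle gene with its standard error (bars), filled where the adjusted p was below 0.05; genes with no point were not tested. On HFD all but Myom3 lie right of 0, and on chow all tested genes lie left of it, with Des the one filled point.

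The Z-disc and costamere list has 12 genes: the actinins Actn2 and Actn3 that cross-link actin, the calsarcins Myoz1 and Myoz2, Myot (myotilin), Tcap (telethonin), Ldb3 (ZASP), the actin-binding Xin proteins Xirp1 and Xirp2, Cmya5 (myospryn), Smpx, and Des (desmin, the intermediate filament of muscle). On HFD, 11 were tested and 11 were higher, with a median log2 fold change of 4.02, and Myoz2 was not tested. Actn3, the fast-fibre actinin, was at 2.69, 88.5 and 1297 CPM in D316A-Tg, against 0.397, 1.80 and 4.90 CPM in WT-Tg. Only D316A-Tg 12 lay within the WT-Tg range, and the log2 fold change was 7.21 ± 1.38 (SE; adjusted p = 0.0194, edgeR). Des, which smooth muscle also makes, was at 20.4, 62.6 and 377 CPM in D316A-Tg, against 8.72, 13.6 and 22.2 CPM in WT-Tg. D316A-Tg 12 was again below the highest WT-Tg library, and the log2 fold change of 2.91 ± 0.62 (SE; adjusted p = 0.0235, edgeR) had an adjusted p of 0.0522 without WT-Tg 4 and 0.0542 without WT-Tg 6.

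Of 12 smooth muscle and pericyte genes, 11 were tested on HFD, where 0 were higher and 3 were lower in D316A-Tg, and the 12 genes' summed level was 401 to 1049 CPM in D316A-Tg and 728 to 1112 CPM in WT-Tg. Among the remaining Z-disc genes the log2 fold changes ran from 3.07 for Ldb3 to 6.65 for Myoz1. Cmya5, of whose exon length 21.7% overlaps another gene, had 14.1, 31.1 and 322 CPM in D316A-Tg, against 2.91, 4.21 and 10.6 CPM in WT-Tg, with no overlap between groups.

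Tcap, which links titin to the Z-disc, was at 2.53, 19.1 and 145 CPM in D316A-Tg, against 0.149, 0.375 and 3.20 CPM in WT-Tg on HFD, and D316A-Tg 12 lay below WT-Tg 5. Myoz1 was at 2.10, 24.6 and 318 CPM in D316A-Tg, against 0, 0.404 and 2.53 CPM in WT-Tg. Myot was at 1.89, 12.2 and 102 CPM in D316A-Tg, against 0, 0.21 and 1.91 CPM in WT-Tg. In both, D316A-Tg 12 alone fell inside the WT-Tg range. Xirp1 was at 0.215, 1.12 and 7.67 CPM in D316A-Tg, against 0, 0.124 and 0.67 CPM in WT-Tg, and Xirp2 was at 2.75, 17.3 and 172 CPM in D316A-Tg, against 0.595, 2.34 and 7.98 CPM in WT-Tg. Their log2 fold changes were 3.59 ± 0.95 and 3.79 ± 0.98 (SE; adjusted p = 0.0408 and 0.0388, edgeR), and the calls were lost on leaving out any of 10 and any of 9 of the 12 libraries singly, with adjusted p values of up to 0.0849 and 0.0826.

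The energy, oxygen and calcium list holds Pygm (muscle glycogen phosphorylase), Mb (myoglobin), Eno3 (muscle enolase), Pvalb (parvalbumin, which binds calcium in fast fibres), Cox6a2 (the muscle and heart form of a cytochrome c oxidase subunit) and Ampd1 (muscle AMP deaminase). On HFD, 6 of 6 were tested and 6 were higher, with a median log2 fold change of 5.46. Pvalb was at 10.2, 92.9 and 1556 CPM in D316A-Tg, against 0.607, 5.23 and 16.4 CPM in WT-Tg, with D316A-Tg 12 inside the WT-Tg range. Its log2 fold change was 5.81 ± 1.26 (SE; adjusted p = 0.0239, edgeR), with an adjusted p of 0.0509 without WT-Tg 1, 0.053 without WT-Tg 4 and 0.0545 without WT-Tg 6. Ampd1 was at 1.13, 10.4 and 146 CPM in D316A-Tg, against 0, 0.177 and 0.722 CPM in WT-Tg. The groups did not overlap, and the log2 fold change was 6.93 ± 1.29 (SE; adjusted p = 0.0194, edgeR). WT-Tg libraries held 0 to 14 counts of Ampd1, so that size is imprecise.

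Cox6a2 had the smallest change of that list, at 1.35, 3.83 and 36.7 CPM in D316A-Tg, against 0.397, 0.678 and 1.80 CPM in WT-Tg. Its log2 fold change was 3.54 ± 0.84 (SE; adjusted p = 0.0293, edgeR), with adjusted p values from 0.057 to 0.0659 without WT-Tg 1, 2, 4 or 6, and 10.3% of its exon length overlaps another gene. Mb was at 3.13, 23.2 and 66.3 CPM in D316A-Tg, against 0.297, 0.839 and 4.64 CPM in WT-Tg, and its log2 fold change was 4.25 ± 0.82 (SE; adjusted p = 0.0198, edgeR). Mb was highest in D316A-Tg 9 and lowest in D316A-Tg 8, so that it did not follow the order of Acta1 within the group, and 31.9% of its exon length overlaps another gene.

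Pygm and Eno3, enzymes of glycogen breakdown and glycolysis, were both higher. Pygm was at 5.71, 66.1 and 1046 CPM in D316A-Tg, against 1.93, 2.67 and 8.92 CPM in WT-Tg, and Eno3 was at 11.9, 98.6 and 1133 CPM in D316A-Tg, against 5.01, 7.38 and 12.99 CPM in WT-Tg. Each had D316A-Tg 12 below WT-Tg 5, and their log2 fold changes were 6.00 ± 1.20 and 5.10 ± 0.99 (SE; adjusted p = 0.0216 and 0.0198, edgeR).

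Trim54, Trim63 and Fbxo32 encode muscle ubiquitin ligases, Trim63 and Fbxo32 being known as MuRF1 and atrogin-1 from muscle wasting. Fbxo32 was at 19.9, 24.8 and 68.5 CPM in D316A-Tg, against 15.9, 18.5 and 21.4 CPM in WT-Tg on HFD, and its log2 fold change of 0.78 ± 0.28 (SE; adjusted p = 0.0928, edgeR) did not pass the test. Without D316A-Tg 12 its adjusted p was 0.0393, and DESeq2 also called it. Its level never fell below 15.1 CPM in any of the 24 libraries. Trim54 and Trim63 did not pass the filter on HFD. Trim54 was at 0.539, 2.77 and 37.5 CPM in D316A-Tg, against 0, 0.0233 and 0.361 CPM in WT-Tg, and Trim63 at 0.323, 3.48 and 49.1 CPM in D316A-Tg, against 0, 0.0794 and 0.361 CPM in WT-Tg. Of the exon length of Trim54, 26.6% overlaps another gene.

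On chow the members' fold changes lay below 0, and how many passed the threshold depended on the test. Of the 37, 29 were tested, 0 were higher and 1, Des, was lower by edgeR, against 5.3% of all 15,249 genes called higher and 3.25% called lower. The median log2 fold change of the 29 was -3.19, against -0.074 for all genes, and 21 had an unadjusted p below 0.05. DESeq2 called 18 of the 29 lower, and edgeR on all 24 libraries in one fit called 12 of 34 lower. The shares of all genes called in these settings are not given here, so how far those counts are particular to the members cannot be read. Des was at 17.1, 25.0 and 48.3 CPM in D316A-Tg, against 46.8, 53.9 and 188 CPM in WT-Tg, with only D316A-Tg 8 reaching the WT-Tg range. Its log2 fold change was -1.46 ± 0.39 (SE; adjusted p = 0.0415, edgeR). That call was lost on leaving out D316A-Tg 7, 9, 10 or 12 or WT-Tg 1, 2, 3, 4 or 5, with adjusted p values from 0.0524 to 0.111, and the count of members called ranged from 0 to 5, the highest without D316A-Tg 8. WT-Tg 6 weighed most on the size: without it the median was -1.79. Of the smooth muscle and pericyte genes, 11 were tested on chow, 4 were lower and 0 were higher in D316A-Tg, and the 11 had a median of -0.91 on the log2 scale. Their summed level was 408 to 640.1 CPM in D316A-Tg and 465 to 917 CPM in WT-Tg, and the part of these cells in the Des value was not tested.

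The other named members show how wide WT-Tg on chow was. Acta1 was at 3.52, 21.95 and 95.6 CPM in D316A-Tg and 2.83, 144 and 1670 CPM in WT-Tg. Mylpf was at 1.22, 6.51 and 48.8 CPM in D316A-Tg and 1.92, 60.2 and 611 CPM in WT-Tg. In both genes WT-Tg 2 and 3 lay within or below the range of D316A-Tg, while WT-Tg 4, 5 and 6 were above all 6. The log2 fold changes were -3.47 ± 1.37 for Acta1 (SE; adjusted p = 0.118, edgeR) and -3.27 ± 1.41 for Mylpf (SE; adjusted p = 0.146, edgeR). By DESeq2 the adjusted p was 0.0224 for Acta1 and 0.0428 for Mylpf.

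Actn3 was at 0.162, 3.46 and 10.3 CPM in D316A-Tg and 0.0937, 21.7 and 549 CPM in WT-Tg on chow, and its log2 fold change was -4.63 ± 1.72 (SE; adjusted p = 0.101, edgeR). Pvalb ranged from 0.0811 to 22.3 CPM in D316A-Tg and from 0.0469 to 663 CPM in WT-Tg, and its log2 fold change was -4.08 ± 1.80 (SE; adjusted p = 0.153, edgeR). By DESeq2 the adjusted p was 0.0121 for Actn3, 0.0483 for Pvalb, 0.0126 for Tmod4, 0.0205 for Cox6a2 and 0.0191 for Mybpc2. Tmod4, Cox6a2, Mybpc2, Mylk2, Mylk4, Ampd1, Myom3 and Fbxo32 were not called by edgeR either, with log2 fold changes between -4.36 for Mylk2 and -0.11 for Fbxo32. Without D316A-Tg 8, Tmod4 and Cox6a2 had adjusted p values of 0.00974 and 0.0287. Under voom with quality weights the values of Acta1 and Pvalb turned to 0.13 and 0.85, those of Mylk4 and Fbxo32 to 0.92 and 0.078, and without WT-Tg 6 that of Fbxo32 to 0.096.

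The count on chow depended on which libraries were used. With the lymphocyte-rich libraries left out, 4 D316A-Tg and 2 WT-Tg libraries remained, and 24 of 35 members tested were lower, with a median log2 fold change of -5.27. The share of all genes called in this setting is not given here, so how far the 24 are particular to the members cannot be read. Those 2 WT-Tg libraries, 5 and 6, held 0.116% and 0.699% of their counts in the 37 genes. The 3 WT-Tg libraries with the fewest muscle counts, 1, 2 and 3, all had B lymphocyte scores of at least 6.88. With the B lymphocyte score as a covariate edgeR called 4 of 29 members lower, Tmod4, Myom3, Des and Pygm, with a median log2 fold change of -3.03. The 10 B and 10 T lymphocyte genes had medians of -1.70 and -1.11 on chow, with 0 called.

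The D316A effect differed between diets for most members. In a model of all 24 libraries, the effect on HFD minus that on chow was positive at an adjusted p below 0.05 for 30 of 34 members tested, and negative for 0, against 6.08% of 16,072 genes with a positive and 6.86% with a negative difference. The median of this difference was 7.64 on the log2 scale. It was 8.44 ± 1.78 for Acta1 (SE; adjusted p = 0.00573, edgeR), 11.85 ± 2.29 for Actn3 (SE; adjusted p = 0.00384, edgeR) and 4.39 ± 0.75 for Des (SE; adjusted p = 0.00277, edgeR). The 30 include Trim54 and Trim63, which the separate fits had left untested and which entered this model through the libraries where they were high. Their calls add no separate evidence, since those same libraries make the difference positive. Both are also within the median and within the leave-one-out count below. No size is given for them, since Trim54 had 0 to 4 counts in each D316A-Tg library on chow and 0 to 7 in each WT-Tg library on HFD, and Trim63 0 to 27 and 0 to 7. Of the 30, 29 were called whichever library was left out. With the lymphocyte-rich libraries left out 33 of 36 were called, but D316A-Tg on HFD then held only libraries 10 and 12. WT-Tg on chow held only libraries 5 and 6, with 0.116% and 0.699% of their counts in the members. Its libraries with the fewest muscle counts, 1, 2 and 3, were left out, which by itself favours a positive difference. That setting is therefore no separate check. In the main fit of 34 members, those not called were Myl3, Myom3, Mb and Fbxo32, with differences of 1.82, 0.55, 5.02 and 0.90 (adjusted p = 0.316, 0.373, 0.0538 and 0.104, edgeR). Diet goes together with age, with the count table and with the version of bcl2fastq named in the labels, so these cannot be told apart.

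Diets were also compared within each genotype, on libraries shared with the comparisons above. In D316A-Tg, 27 of 32 members tested were higher on HFD than on chow and 0 were lower, against 14.1% of 14,752 genes called higher and 16.7% lower, with a median log2 fold change of 4.20. The 27 include Trim63, which had 6 to 890 counts in each D316A-Tg library on HFD and 0 to 27 on chow. Its call rests on few chow counts. In WT-Tg, 21 of 28 were lower on HFD than on chow and 0 were higher, against 28.7% of 15,018 genes called higher and 33.3% lower, with a median of -3.58. Without WT-Tg 6 on chow the WT-Tg count was 15 with a median of -2.67, and without D316A-Tg 7 on HFD the D316A-Tg count was 19 with a median of 2.98.

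Lymphocyte markers moved with diet in WT-Tg as well. In WT-Tg, 9 of 10 T lymphocyte genes and 1 of 9 B lymphocyte genes tested were lower on HFD, with median log2 fold changes of -3.43 and -3.56. With the lymphocyte-rich libraries left out, 5 WT-Tg libraries on HFD and 2 on chow remained, 33 of 35 members were lower with a median of -4.73, and the T lymphocyte median was -0.013 with 0 called. Those 2 chow libraries, WT-Tg 5 and 6, held 0.116% and 0.699% of their counts in the members. WT-Tg 1 to 4 on chow, which were left out, held 0.0211% to 0.222%. With the B lymphocyte covariate 27 of 28 members were lower in WT-Tg, with a median of -4.21. In D316A-Tg, 0 of the 20 lymphocyte genes were called, with medians of 0.16 for B and -0.42 for T lymphocyte genes. Without the lymphocyte-rich libraries, 2 D316A-Tg libraries on HFD and 4 on chow remained, 21 of 32 members were higher and 1, Myl3, was lower on HFD, with a median of 4.25, and 8 of 8 B lymphocyte genes tested were higher, with a median of 3.12. With the covariate 29 of 32 members were higher, with a median of 3.99. The shares of all genes called with the covariate or without the lymphocyte-rich libraries are not given here. How far these counts are particular to the listed genes therefore cannot be read.

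The groups of a diet comparison did not overlap for few members. In D316A-Tg, Actc1, Myom3, Myoz2, Ldb3, Cmya5 and Trim54 were higher on HFD in every library, as were 8.24% of the 14,752 genes that passed the filter. Actc1, Myoz2 and Trim54 did not pass it. For Actc1 and Myoz2 the lowest library on HFD had 2 counts, against at most 1 on chow, so their separation lies at the floor. In WT-Tg, Tmod4, Des, Eno3 and Ampd1 were lower on HFD in every library, as were 15.8% of genes. Of the members tested in both genotypes, Myom3 alone had a log2 fold change above 0 in both. It was at 17.6 to 28.9 CPM on HFD and 3.38 to 14.04 CPM on chow in D316A-Tg, and its log2 fold change was 1.26 ± 0.27 (SE; adjusted p = 0.004, edgeR). In WT-Tg it was at 13.8 to 32.2 CPM on HFD and 4.13 to 25.3 CPM on chow, and its log2 fold change was 0.75 ± 0.33 (SE; adjusted p = 0.0685, edgeR).

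The members differed greatly in how widely their levels ranged. Over the 24 libraries the highest level of Acta1 was 1290 times its lowest, that of Ttn 3055 times, that of Actn3 13,836 times and that of Pvalb 33,202 times. The lowest levels of Actn3 and Pvalb were 2 counts and 1 count, both in WT-Tg 3 on chow, so those ratios are imprecise. No ratio was formed for members with a library at 0 counts. The same ratio was 4.52 for Fbxo32, 9.52 for Myom3 and 94.9 for Myl1. Per kilobase of exon and over all 24 libraries, Acta1 had the highest mean at 223 CPM, followed by Pvalb at 125, Mylpf at 108, Eno3 at 59.7 and Myl1 at 58.0 CPM per kilobase, means set largely by D316A-Tg 7 on HFD and WT-Tg 6 on chow.

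What the 37 genes' counts were made of changed with their amount. Acta1 led in all 6 D316A-Tg libraries on HFD, with 17.2% to 26.5% of the members' counts, but in 1 of 6 WT-Tg libraries on HFD. Myl1, Fbxo32, Myom3 and Des, a set picked after their values were seen, together held 9.47% to 32.2% of those counts in D316A-Tg and 29.0% to 66.6% in WT-Tg on HFD. On chow the same 4 genes held 19.3% to 70.0% in D316A-Tg and 8.48% to 57.2% in WT-Tg. The lowest share, 8.48%, was in WT-Tg 6 on chow and the highest, 70.0%, in D316A-Tg 9 on chow. In WT-Tg 4 on HFD 8 of the 37 members had no count at all, and in D316A-Tg 7 on chow 14 had none.

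Several members stayed above the floor in the lymphocyte-rich chow libraries D316A-Tg 11 and WT-Tg 1, 2 and 3, whose share of counts in the 37 genes was 0.0170% to 0.0438%. D316A-Tg 8 and WT-Tg 4, also lymphocyte-rich, held larger shares and are left aside. D316A-Tg 11 and WT-Tg 1, 2 and 3 are set here beside the lymphocyte-poor chow libraries D316A-Tg 7, 9, 10 and 12, with a share of 0.0117% to 0.0274%. The lymphocyte-poor libraries are all D316A-Tg and the lymphocyte-rich ones, but for D316A-Tg 11, are WT-Tg. Lymphocyte content and genotype therefore go largely together in this contrast. Ampd1 was at 3.52 CPM in D316A-Tg 11 and 7.11, 2.27 and 2.86 CPM in WT-Tg 1, 2 and 3, against 0 CPM in D316A-Tg 7, 9 and 10 and 1.77 CPM in D316A-Tg 12. Actn2 was at 3.58 CPM in D316A-Tg 11 and 2.57, 1.77 and 1.78 CPM in WT-Tg 1, 2 and 3, against at most 0.0739 CPM in D316A-Tg 7, 9, 10 and 12. Eno3 was at 28.2 to 35.4 CPM in those 4 lymphocyte-rich libraries and at 13.1 to 23.2 CPM in those 4 lymphocyte-poor ones. Mb and Pvalb showed no such floor, with 0.182 CPM of Mb in D316A-Tg 11 and 0.0937 CPM of Mb in WT-Tg 3. The part of lymphocytes in these values was not tested.

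**Figure D4:**
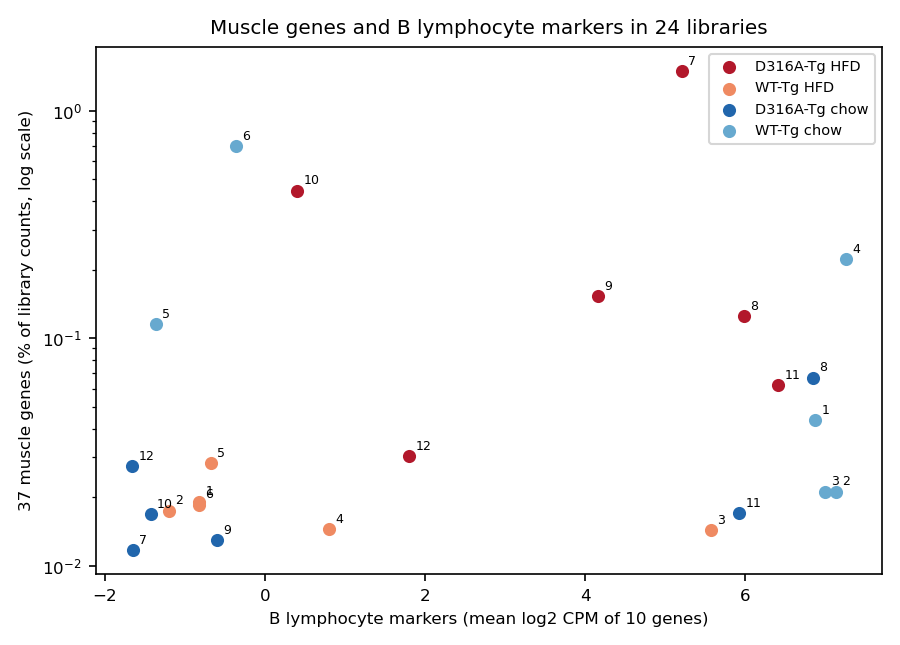
Share of library counts in the 37 muscle genes (%, log axis) against the mean log2 CPM of 10 B lymphocyte genes for each of 24 libraries, coloured by group and numbered as in the labels. Muscle-rich libraries occur at both ends of the lymphocyte axis, such as WT-Tg 6 on chow at a score of -0.36 and D316A-Tg 7 on HFD at 5.21.

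Slow and fast partners were compared within libraries, as the log2 ratio of their CPM per kilobase wherever both had at least 20 counts. These ratios are descriptions with no test. Actn2, the actinin of all fibres and of the heart, over Actn3, that of fast fibres, could be read in 12 libraries. In D316A-Tg on HFD it was -6.52, -5.58, -2.88, -6.06, -2.48 and 0.18 in libraries 7 to 12, and it was -1.34 in WT-Tg 5 on that diet. On chow it was -0.79 in D316A-Tg 8 and -2.68, -5.82, -1.04 and -7.71 in WT-Tg 1, 4, 5 and 6. Libraries of one group thus stood at opposite ends of the range.

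The pairs Mybpc1 to Mybpc2 and Mb to Mylpf were chosen after the data were seen. Mybpc1, the slow myosin-binding protein C, over Mybpc2 was -5.03, -4.63, -0.67, -3.53, -0.82 and 0.16 in D316A-Tg 7 to 12 on HFD and 0.05 in WT-Tg 5 on HFD. It was -0.22 and -0.95 in D316A-Tg 8 and 12 on chow, and -1.70, -2.58, 0.49 and -6.46 in WT-Tg 1, 4, 5 and 6 on chow. Mb over Mylpf ran from -8.65 in WT-Tg 6 on chow to -0.89 in D316A-Tg 12 on HFD over 15 libraries. WT-Tg 5 and 6 on chow, both poor in lymphocyte markers and rich in muscle counts, lay far apart in these pairs. Mb was at 31.0 CPM in library 5 and 2.13 CPM in library 6, while Mylpf was at 103 CPM in library 5 and 611 CPM in library 6.

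**Figure D5:**
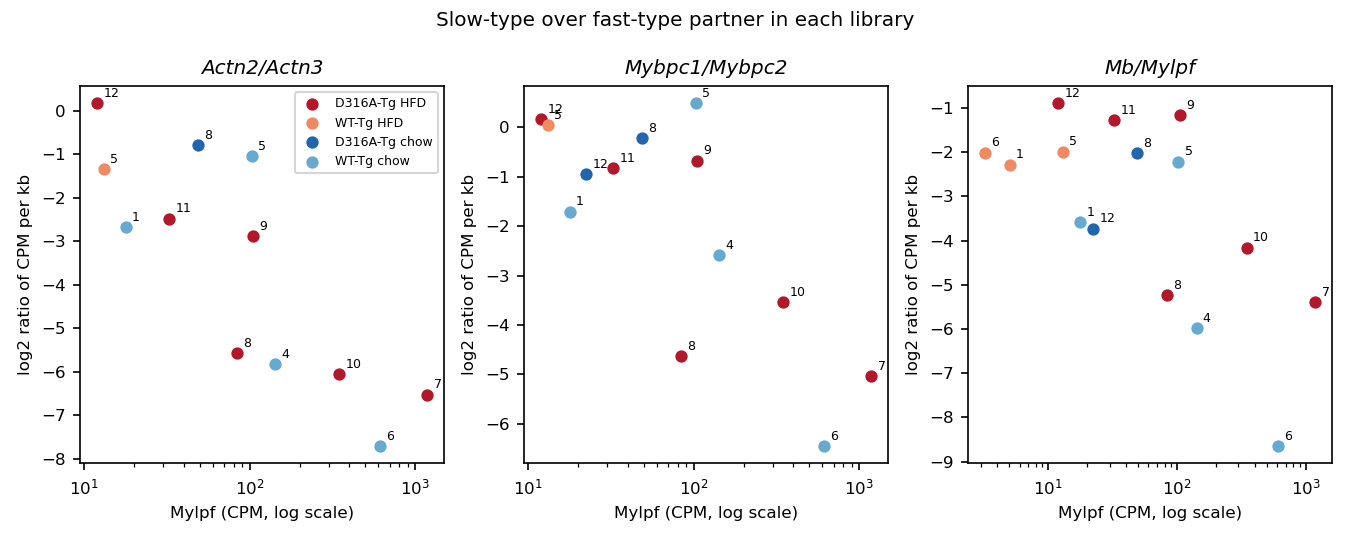
Log2 ratio of CPM per kilobase for Actn2/Actn3, Mybpc1/Mybpc2 and Mb/Mylpf against Mylpf CPM (log axis) in each library with at least 20 counts of both. The first gene of a pair is the slow-type one, except that Actn2 is found in all fibres. Points are coloured by group and numbered as in the labels. WT-Tg 6 on chow is lowest in all 3 pairs. D316A-Tg 12 on HFD is highest for Actn2/Actn3 at 0.18 and for Mb/Mylpf at -0.89, and WT-Tg 5 on chow is highest for Mybpc1/Mybpc2 at 0.49.

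Myl2, Myl3 and Myoz2, the other slow-type genes, were so low that their ratios to Mylpf, Myl1 and Myoz1 could be read in 2 libraries each. Myl2 over Mylpf was -5.55 in D316A-Tg 9 and -5.32 in D316A-Tg 11 on HFD. Myl3 over Myl1 was -5.95 in D316A-Tg 9 on HFD and -5.01 in D316A-Tg 9 on chow, and Myoz2 over Myoz1 was -5.14 in D316A-Tg 9 on HFD and -3.32 in WT-Tg 5 on chow. Myl3 also had a low level on chow, 0.243 to 1.66 CPM in D316A-Tg and 0.0469 to 0.651 CPM in WT-Tg. Its highest chow level, 1.66 CPM, was in D316A-Tg 9, where Acta1 was at 7.60 CPM. The highest in WT-Tg was in library 6 and the lowest in library 3, where Acta1 was at 1670 and 5.76 CPM. The 7 fast-type members Actn3, Myl1, Mylpf, Mylk2, Mybpc2, Myoz1 and Pvalb were all higher in D316A-Tg on HFD. Actn2, which is found in all fibres, and the slow-type genes Mybpc1 and Mb were higher as well (adjusted p = 0.0251, 0.0235 and 0.0198, edgeR). Of the 4 other slow-type members Myl2, Myl3, Myoz2 and Myom3, only Myom3 passed the filter, and it was not called. Myl2 had 104 counts summed over D316A-Tg on HFD and 10 over WT-Tg. Myl3 had 46 and 6, and Myoz2 54 and 5, and these low counts were not tested.

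The myosin heavy chain, troponin and tropomyosin genes, which complete the sarcomere, were counted as well. Of 15 such genes, 9 were tested on HFD and 8 were higher in D316A-Tg, and on chow 9 were tested and 1, Tpm1, was lower. With the lymphocyte-rich libraries left out, 0 of 9 were called on HFD, with a median log2 fold change of 2.97, and 5 of 10 were lower on chow, with a median of -5.35. Their summed level was 358 to 14,736 CPM in D316A-Tg and 214 to 376 CPM in WT-Tg on HFD, and 119 to 501 CPM in D316A-Tg and 215 to 7664 CPM in WT-Tg on chow. Myh4, the fast IIb heavy chain, was at 5.98, 339 and 6906 CPM in D316A-Tg, against 0.892, 6.45 and 37.4 CPM in WT-Tg on HFD. Of 10 heart muscle genes, 4 were tested on HFD, where 0 were higher and 1 was lower in D316A-Tg, and Nppa and Nppb were at 0 in every library. Of 12 myogenic lineage genes, such as Myod1 and Pax7, 1 passed the filter on HFD and was not called.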

How the data were processed

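Inguinal fat RNA was sequenced with a stranded mRNA kit, per the labels' protocols. The authors deposited whole-number read counts per gene in 2 tables, one per diet, with 39,017 and 38,483 genes, joined here by identifier. STAR 2.4.1 and mm10 are named in the submitters' processing notes, and bcl2fastq 2.20.0.422 (chow) and bclfastq 2.16.0.10 (HFD) in the labels. For the counting tool, the annotation and strand use, the sources used here give nothing.

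Groups follow the titles, with 6 libraries each and 13,254,536 to 22,748,132 counts per library. For members with few counts, counting error adds to the spread between libraries. Genes were tested with edgeR 4.0.16 in R 4.3.3 (quasi-likelihood F test, robust, TMM scaling, filterByExpr on the groups compared). The threshold was an adjusted p of 0.05 (Benjamini-Hochberg, every tested gene of a comparison). The SE is the log2 fold change divided by the square root of F. CPM values use 1 TMM scaling over 24 libraries on shared genes, and log2 CPM a prior count of 2. Scores of a list average log2 CPM over its genes. Positions and exon lengths come from GENCODE M21, promoters from RefSeq, and overlap is counted on both strands. Of the genes in the other lists, 4 were matched by identifier. The fits were tested on simulated data.

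The members, the lists and the tests were chosen with earlier results of these data known. Values are given for the member of each of 6 role lists with the highest mean CPM per kilobase, the lowest adjusted p on HFD and the smallest change on HFD, 13 in all; the others named were chosen after their values were seen. Other settings tried were RLE and upper-quartile scaling, DESeq2 1.42.0, limma 3.58.1 (voom with quality weights), other count filters, no robust step, a B lymphocyte covariate, all libraries in one fit, a replicate block and leaving out each library. Leaving out the lymphocyte-rich libraries (score above 4) and 2 of the slow to fast pairs were added after the data were seen.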

Additional observations from a re-analysis of the deposited data

Results flagged for a closer look

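The D316A effect differed between HFD and chow, by edgeR's test of the difference itself, for 30 members in all, each higher on HFD relative to chow. The 30 include Trim54 and Trim63, which passed the filter only through the libraries where they were high. Among the members with values given throughout, the effect on HFD minus that on chow was, on the log2 scale, 8.44 for Acta1, 6.41 for Tmod4, 9.23 for Mylpf, 11.30 for Mybpc2, 10.62 for Mylk2 and 10.77 for Mylk4. It was 11.85 for Actn3, 4.39 for Des, 9.90 for Pvalb, 10.21 for Ampd1 and 6.31 for Cox6a2. The adjusted p values of these 11 lay between 0.00277 and 0.00866, and the sizes for Mylk4 and Ampd1 rest on few WT-Tg counts on HFD. D316A-Tg 7 on HFD and WT-Tg 6 on chow, the libraries with most muscle counts of their groups, both raise this difference, whose median over the members tested was 6.44 without D316A-Tg 7 on HFD and 6.21 without WT-Tg 6 on chow. No sample of the 13 members' log2 CPM stood apart by Dixon's test in the 52 groups examined, where chance alone would mark about 1 in 20.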

How the results depend on the processing

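For D316A-Tg against WT-Tg on HFD, the 29 members called became 0 with the B lymphocyte covariate and 0 without the lymphocyte-rich libraries. Leaving out 1 library gave 14 to 32 called and a median of 3.84 to 5.71. On chow the 1 call became 18 with DESeq2, 6 with voom, 0 without a filter, 2 at a mean count of at least 50, 4 with the covariate, 12 in one fit of 24 libraries and 24 without the lymphocyte-rich libraries, all of them lower in D316A-Tg. The chow median moved to -0.41 with voom and -5.27 without the lymphocyte-rich libraries, and leaving out 1 library gave 0 to 5 called and medians of -3.97 to -1.79. For the difference between diets voom gave a median of 5.39, and leaving out 1 library gave 29 to 31 called and medians of 6.21 to 8.72. For HFD against chow in WT-Tg, 21 called became 10 with voom (median -0.59) and 33 without the lymphocyte-rich libraries, and leaving out 1 library gave 15 to 26 and medians of -4.06 to -2.67. In D316A-Tg leaving out 1 library gave 19 to 31 and medians of 2.98 to 5.18. Shares of all genes called are given for the main fits, and all-gene counts for the covariate and lymphocyte settings on HFD. For other settings the members' counts stand without such a background.

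Under voom the sign turned on chow for Acta1 (0.13), Mylk4 (0.92), Pvalb (0.85) and Fbxo32 (0.078), and in HFD against chow of WT-Tg for Acta1 (0.54), Mylk2 (0.30), Mylk4 (0.45), Pvalb (1.60) and Fbxo32 (0.022). Leaving out 1 library, Fbxo32 on chow lay between -0.21 and 0.096, the positive value without WT-Tg 6. The cause was not tested. Same-numbered libraries of the 2 diets correlated between -0.37 and 0.61, and 2 of 12 correlated best with their own number. The labels do not say that equal numbers mark related samples. These correlations cannot decide it, since the muscle and lymphocyte content of each library enters them as well. With the replicate block, 10 members were called for HFD against chow in WT-Tg and 9 in D316A-Tg. At a minimum of 100 counts the range of Mb over Mylpf fell to 4.50, against 7.76 at 20 counts, and the pairs with Myl2, Myl3 and Myoz2 gave no value. Depth limits Actc1, Myl2, Myl3, Myoz2, Trim54 and Trim63, which failed the filter on HFD, and any level near 0.05 CPM, which is about 1 count.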
